A study of Mus musculus with 16 samples.

Results

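Gene expression in the mouse host tissue of HER2-positive breast tumour xenografts was compared between 4 tumours treated with trastuzumab alone and 4 tumours given vehicle. These 8 libraries, chosen by their treatment labels, are part of a series of 16, and each came from its own mouse. AU565(pv) is a line of human breast cancer cells in which HER2 is amplified. Whole tumours of it, grown in mammary fat pads, were taken from SCID mice whose background strain and age the labels do not give. SCID mice cannot rearrange antigen receptor genes and therefore make almost no mature T or B cells, while their NK cells, monocytes, macrophages and neutrophils are present. Trastuzumab mice had 10 mg/kg of the antibody by intraperitoneal injection, once, with D5W (dextrose in water) on days 0 and 1. Vehicle mice had PBS once and the same D5W on days 0 and 1. Tumours were harvested on day 2. The day of the antibody is 0 in the treatment protocol and 1 in the series' design text, so the exposure time is uncertain by a day. The other 8 libraries came from mice given panobinostat, a histone deacetylase inhibitor, at 15 mg/kg on days 0 and 1, either with trastuzumab (combination, 4 mice) or without it (panobinostat, 4 mice). They are used below only as a second pair of groups that differ by trastuzumab.

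Trastuzumab is a humanised IgG1 antibody that binds human HER2. Its Fc part is bound by Fc gamma receptors on NK cells and phagocytes, which can kill or engulf coated cells, and engagement of the activating receptors signals through a shared chain encoded by Fcer1g. Phagocytes that take up material can load peptides onto MHC class II molecules, which CIITA, the class II transactivator, controls at the level of transcription. The reads were counted on mouse genes, so the tumour cells themselves are outside the measurement except where human reads aligned to a conserved mouse gene, a share that was not measured. In whole tumours, fewer cells of a type and less RNA per cell cannot be told apart.

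The promoters of 5 genes that are described below are shown first, because class II and SIRP beta genes recur among the genes of smallest p. Each is a RefSeq window (build GRCm38.p6) of 300 bases on the gene's own strand, 250 before and 50 after the annotated start. Of the 79 genes named in the text, 57 had a window, and so did 9 of the 12 class II list genes. H2-Aa encodes a class II alpha chain and H2-Eb1 a class II beta chain, while H2-DMb1 encodes part of the peptide-loading factor H2-DM. Capitals mark 3 motifs of class II promoters searched on both strands: AGNAAC followed directly by NGATG (X1 type), TGACGTC (X2 type) and ATTGG, the core of the Y box, which may overlap one another.
H2-Aa, chr17:34287774-34288073, minus strand: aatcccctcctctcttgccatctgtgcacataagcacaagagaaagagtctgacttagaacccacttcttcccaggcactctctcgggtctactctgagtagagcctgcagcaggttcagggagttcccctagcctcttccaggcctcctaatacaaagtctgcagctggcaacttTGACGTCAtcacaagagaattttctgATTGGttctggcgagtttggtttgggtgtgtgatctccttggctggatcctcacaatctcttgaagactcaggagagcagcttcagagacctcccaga
H2-Eb1, chr17:34305617-34305916, plus strand: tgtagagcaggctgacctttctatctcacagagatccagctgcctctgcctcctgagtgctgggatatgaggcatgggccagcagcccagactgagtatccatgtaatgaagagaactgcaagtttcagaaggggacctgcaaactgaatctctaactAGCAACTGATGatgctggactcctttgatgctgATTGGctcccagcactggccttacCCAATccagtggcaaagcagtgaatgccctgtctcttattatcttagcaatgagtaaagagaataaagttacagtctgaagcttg
H2-DMb1, chr17:34152941-34153240, plus strand: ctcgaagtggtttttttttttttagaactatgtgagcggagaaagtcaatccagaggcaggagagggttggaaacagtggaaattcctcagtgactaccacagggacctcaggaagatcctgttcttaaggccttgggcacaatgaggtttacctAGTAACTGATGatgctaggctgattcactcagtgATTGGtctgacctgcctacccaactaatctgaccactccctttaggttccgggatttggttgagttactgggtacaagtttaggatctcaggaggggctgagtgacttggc
Not every class II window held these letters. Over the 9 class II list genes with a window, the X1-type letters stood in 3 (H2-Eb1, H2-DMb1 and H2-Eb2) and in 0.298% of all 32841 windows of this length. ATTGG stood in 8, for H2-DMa in 1 of its 2 windows, and in 37.4% of all windows. TGACGTC stood in H2-Aa only, read from both strands as 1 palindrome, and in 3.21% of all windows, and Ctss held none of the 3 motifs. Sirpb1a and Gm5150 are related genes on chromosome 3, with Sirpb1b and Sirpb1c between them, that encode SIRP beta type receptors of myeloid cells. Their windows were 80.9% identical over a global alignment, the highest of the 6 pairs of these 4 genes. The lowest was 41.9%, for Sirpb1b and Gm5150. Capitals here mark AGGAAGT, a letter pattern of the kind that ETS factors such as PU.1 bind, searched on both strands and found in 9.35% of all windows. Counted from the annotated start, it lay at -56 in Sirpb1a, 37 in Sirpb1b, -4 in Sirpb1c and -68 in Gm5150. The windows are thus shifted against each other. The identities include that shift and do not rank how alike the promoters are.
Sirpb1a, chr3:15426378-15426677, minus strand: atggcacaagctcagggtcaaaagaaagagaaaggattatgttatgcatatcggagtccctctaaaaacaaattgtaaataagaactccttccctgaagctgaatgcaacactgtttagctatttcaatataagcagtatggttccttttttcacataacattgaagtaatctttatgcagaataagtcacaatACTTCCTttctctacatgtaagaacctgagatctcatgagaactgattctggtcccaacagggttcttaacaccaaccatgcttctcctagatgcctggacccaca
Gm5150, chr3:16006283-16006582, minus strand: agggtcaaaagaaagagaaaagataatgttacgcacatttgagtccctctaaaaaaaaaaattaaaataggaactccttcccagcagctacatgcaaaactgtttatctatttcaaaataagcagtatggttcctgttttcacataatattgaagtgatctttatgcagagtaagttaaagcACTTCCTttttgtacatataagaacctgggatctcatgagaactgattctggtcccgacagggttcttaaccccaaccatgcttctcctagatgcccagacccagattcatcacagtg
These matches describe the windows of the reference strain and are not evidence of binding in these tumours.

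Total counts of the 8 libraries were 4848244 to 7345222. A few libraries stood apart in tissue genes. Chosen after their values were seen, the lymph node genes (5 tested, including Glycam1 and Ccl21a, which mark the vessels and stroma of nodes) summed to 228, 31.3, 17.7 and 22.5 CPM (counts scaled by library size with TMM factors) in trastuzumab mice 12, 15, 20 and 24, against 30.8, 52.5, 41 and 80.1 CPM in vehicle mice 3, 6, 21 and 29. Trastuzumab mouse 12 was the highest by far. Epidermal genes (5 tested, also chosen afterwards) summed to 63.7, 99.1, 81.8 and 85.9 CPM in trastuzumab tumours, against 81.7, 79.3, 485 and 78.9 CPM in vehicle tumours, where mouse 21 stood alone. Adipocyte markers (21 tested) summed to 25010.0, 9417, 6024 and 4511 CPM in trastuzumab tumours, against 4987, 20516, 12463 and 18178 CPM in vehicle tumours. The fat signal varied widely within both groups, and the first principal component of the 8 libraries, with 37.8% of the variance, had the 3 libraries highest in it (trastuzumab mouse 12 and vehicle mice 6 and 29) at 1 end. T cell genes Cd3d and Cd3g had 9 and 9 counts over the 4 trastuzumab libraries, against 3 and 1 over the 4 vehicle libraries. The B cell gene Ms4a1 had 4 counts over the trastuzumab libraries, against 9 over the vehicle libraries. Not all lymphocyte markers were as low. The 6 tested T cell markers summed to 34.7, 47.6, 14.2 and 27.9 CPM in trastuzumab tumours, against 36.6, 54.9, 46.6 and 28.2 CPM in vehicle tumours, and the 4 tested B cell and plasma cell markers to 169.7, 136, 131 and 148 CPM in trastuzumab tumours, against 94.4, 146, 124 and 172 CPM in vehicle tumours. Most of the second sum was Ighm, the immunoglobulin mu chain gene, at 146, 109, 115 and 126 CPM in trastuzumab tumours and 70.2, 115, 97.2 and 152 CPM in vehicle tumours. Values below are given in the mouse order used here.

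**Figure D1:**
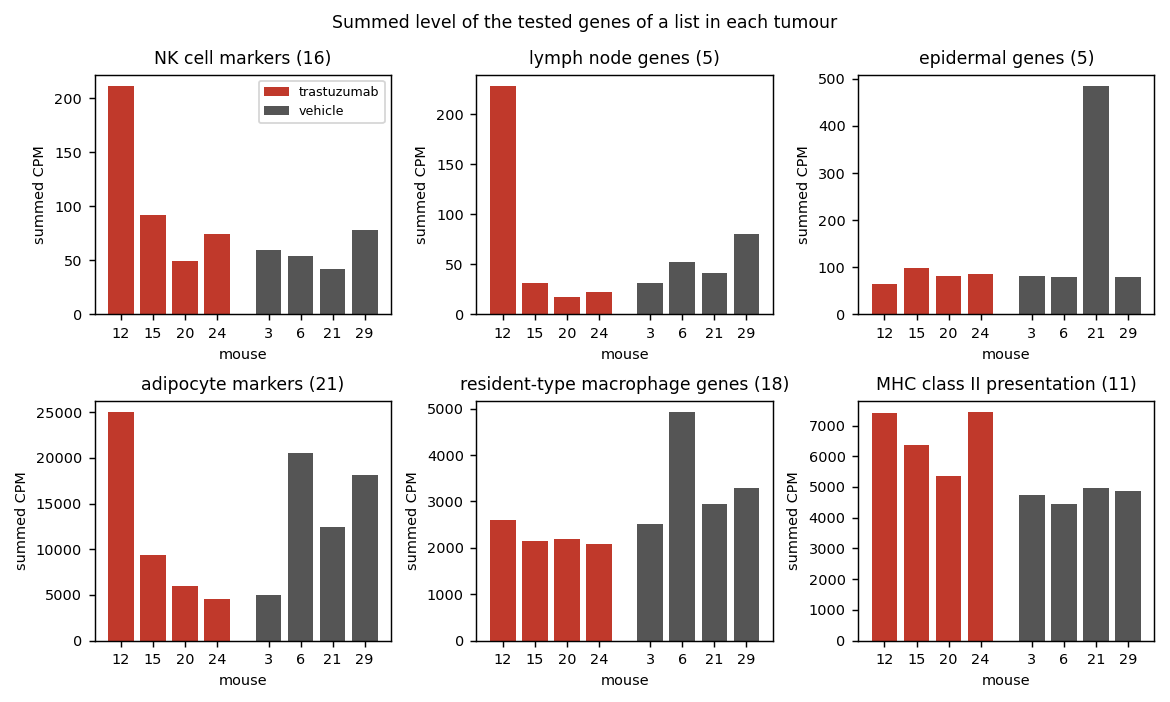
Summed CPM (vertical axes) of the tested genes of 6 lists in each tumour, with the number of genes in brackets; red bars are trastuzumab mice and grey bars vehicle mice, numbered on the horizontal axes. Trastuzumab mouse 12 led in lymph node and NK genes, vehicle mouse 21 in epidermal genes and vehicle mouse 6 in resident-type macrophage genes. The class II sum, though not every class II gene, was higher in all 4 trastuzumab tumours.

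No gene passed the test between trastuzumab and vehicle tumours. Of 15610 genes tested with edgeR's quasi-likelihood test, 0 (0%) had a Benjamini-Hochberg adjusted p under 0.05, and the smallest adjusted p was 0.398. At an unadjusted p under 0.05, 317 genes (2.03%) had higher and 232 (1.49%) lower levels in trastuzumab tumours. All 4 trastuzumab libraries lay above all 4 vehicle libraries for 210 genes (1.35%) and below them for 150 (0.961%). DESeq2 called 12 of 15601 genes with an adjusted p (0.0769%), all higher, and limma voom called 0. The 12 were Gpr31b, Sirpb1a, Clec7a, Il1rn, Stap1, H2-Ab1, Klra2, Hpx, Itgax, H2-Eb1, Emr4 and Gm5150. The fit to the 8 libraries alone called Il1rn only (adjusted p = 0.0184). The words higher and lower below compare values and do not mean that edgeR's test was passed. Apart from those marked as drawn up afterwards, the lists below were chosen with earlier results of these data known. Their counts beside the share of all genes are therefore not independent support.

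**Figure D2:**
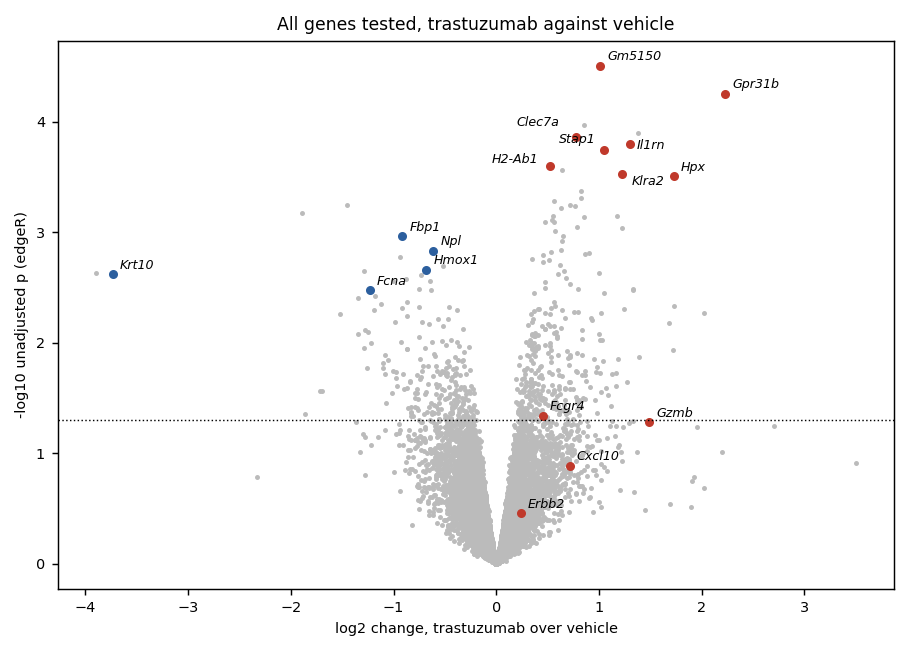
Each grey point is 1 of the 15610 genes tested, placed by its log2 change, trastuzumab over vehicle (horizontal axis), and by -log10 of its unadjusted edgeR p (vertical axis); the dotted line is p of 0.05 and coloured points are genes of the text. The smallest p values lie on the side of higher levels, where Gpr31b had a log2 change of 2.23, and Krt10 on the other side rests on 1 vehicle library.

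Several of the higher genes of smallest p are known from myeloid cells. Il1rn, on chromosome 2 (24336853 to 24351494, plus strand, GRCm38), encodes the interleukin 1 receptor antagonist, which blocks interleukin 1 signalling and is made by activated phagocytes. It had 65, 80.7, 60.5 and 58.7 CPM in trastuzumab tumours, against 31.4, 23.2, 25 and 28.2 CPM in vehicle tumours. The lowest trastuzumab library was well above the highest vehicle library, and the fold was 2.46 (log2 change 1.30, 95% interval 0.73 to 1.87, edgeR adjusted p = 0.398, DESeq2 adjusted p = 0.00665). Over its list, of 19 tested interleukin 1 family and cytokine genes, 8 had a positive log2 change and the median was -0.06, against 0.0017 over all genes. Nfkbiz, which encodes a nuclear NF-kappaB cofactor, came next in the list by p, at 0.37, and Tnf had 0.25 with a 95% interval of -0.40 to 0.90.

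Clec7a, on chromosome 6 (129461591 to 129472779, minus strand, GRCm38), encodes dectin 1, a receptor of phagocytes for fungal beta-glucan, and is annotated by GENCODE as a polymorphic pseudogene. Its levels were 200.5, 170.0, 174 and 168 CPM in trastuzumab tumours, against 128, 94.6, 100.3 and 93.7 CPM in vehicle tumours, a log2 change of 0.78 (SE 0.16, edgeR adjusted p = 0.398). The groups did not overlap. Among 14 tested myeloid C-type lectin genes, 10 had a positive change, with a median of 0.20 and a range of -0.95 to 0.78. Clec12a, an inhibitory lectin receptor gene of myeloid cells, was the other with groups apart, at 72.9, 86.4, 78.1 and 75.1 CPM in trastuzumab tumours and 54.5, 64.7, 55.6 and 49.3 CPM in vehicle tumours. The lectin median ranged from 0.12 to 0.32 with 1 library left out.

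The SIRP beta genes encode receptors that pair with the adaptor DAP12, unlike SIRP alpha, the inhibitory receptor for CD47. Sirpb1a had 14.8, 13.1, 9.60 and 13.4 CPM in trastuzumab tumours, against 7.85, 7.24, 6.43 and 6.93 CPM in vehicle tumours. Gm5150, whose promoter is printed above beside that of Sirpb1a, had 15.1, 13.8, 12.5 and 15.3 CPM in trastuzumab tumours, against 7.44, 6.28, 7.13 and 7.40 CPM in vehicle tumours. The groups did not overlap in either gene, with log2 changes of 0.85 (SE 0.17) and 1.01 (SE 0.18), and Gm5150 had the smallest unadjusted p of all genes, 3.09e-05. Related genes, chosen after their values were seen, gave 0.90 for Sirpb1c and 0.60 for Sirpb1b, with overlapping groups. Where related genes share sequence, the handling of reads from shared stretches depends on counting settings that were not given. How much sequence these transcripts share was not measured, so the 4 values may not be separate measurements. Sirpa itself, whose product restrains phagocytosis, had 284, 268, 275 and 288 CPM in trastuzumab tumours and 284, 339.8, 287 and 264 CPM in vehicle tumours, a log2 change of -0.07 with a 95% interval of -0.28 to 0.13. A list of 22 SIRP and paired myeloid receptor genes was drawn up after the data were seen. Of these, 8 were higher in every trastuzumab library, against 1.35% of all genes, and 0 were lower in every one, against 0.961%. These counts describe the choice of genes.

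Stap1 and Klra2 followed. Stap1, which encodes a signalling adaptor that binds the receptor of colony-stimulating factor 1 in mouse microglia, had 8.38, 9.50, 7.30 and 10.8 CPM in trastuzumab tumours, against 5.23, 4.02, 2.96 and 5.24 CPM in vehicle tumours. Klra2 encodes a Ly49-type receptor and had 26.8, 17.2, 12.3 and 19.7 CPM in trastuzumab tumours, against 9.05, 7.40, 7.13 and 9.09 CPM in vehicle tumours. Their log2 changes were 1.04 (SE 0.22) and 1.23 (SE 0.27), with edgeR adjusted p = 0.398 and 0.442. Gpr31b, a gene for a G protein-coupled receptor, had 4.53, 2.85, 3.34 and 3.83 CPM in trastuzumab tumours, against 0.201, 0.644, 1.39 and 0.770 CPM in vehicle tumours. Its fold of 4.68 was the highest of the genes named by rank, at a level of only a few CPM. Hpx, which encodes the haem-binding plasma protein hemopexin, had 7.28, 6.65, 3.76 and 2.44 CPM in trastuzumab tumours, against 0.805, 1.77, 1.91 and 1.54 CPM in vehicle tumours. Tmem51, a membrane protein gene that overlaps an antisense gene in a library type that does not keep strand, had 22 ± 2.85 CPM in trastuzumab tumours and 14.1 ± 0.627 CPM in vehicle tumours (SD, n = 4 each).

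**Figure D3:**
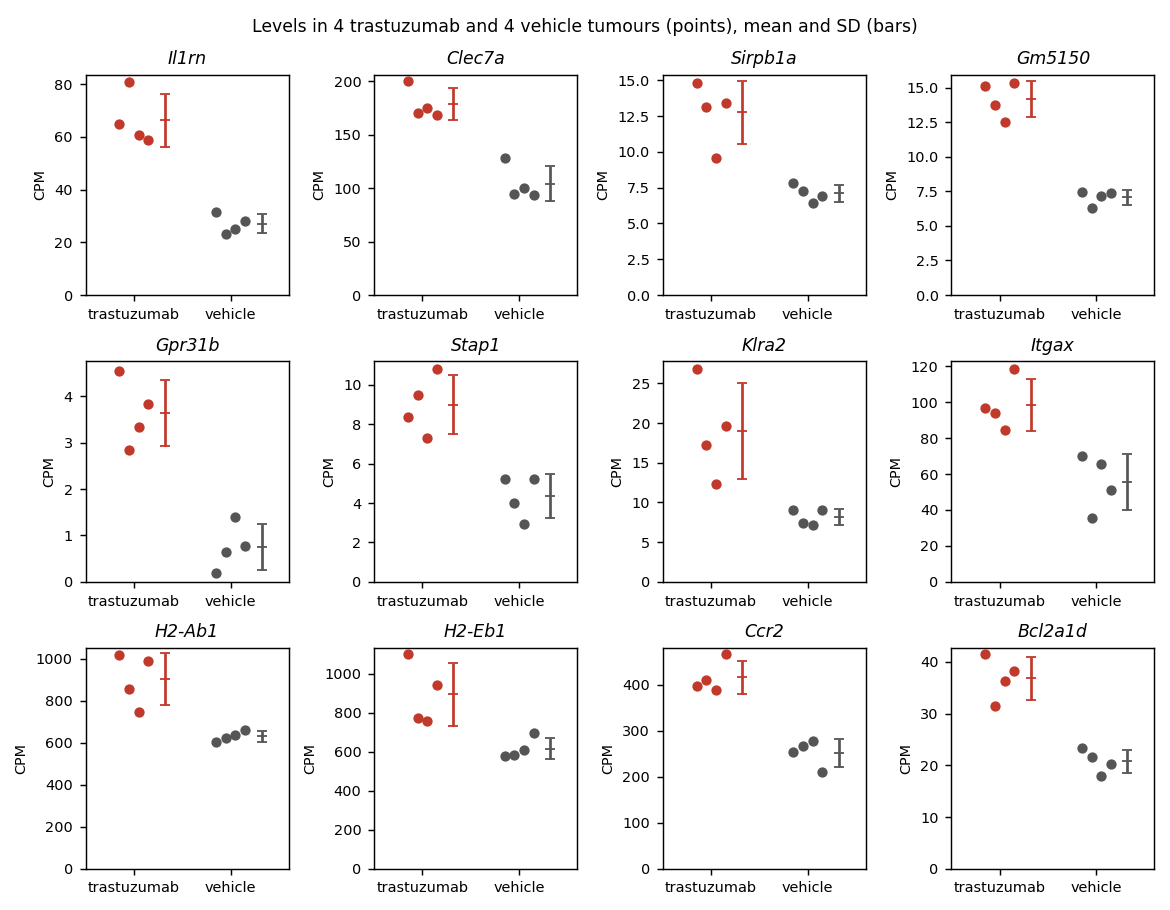
CPM (vertical axes, starting at 0) of 12 genes in 4 trastuzumab tumours (red) and 4 vehicle tumours (grey), each point being 1 tumour; the bar beside each group is its mean and SD. In all 12 panels every trastuzumab tumour lies above every vehicle tumour.

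Ccr2 encodes the chemokine receptor by which inflammatory monocytes leave the bone marrow and enter tissue. It had 397, 410.4, 388 and 466 CPM in trastuzumab tumours, against 254, 268, 277 and 209 CPM in vehicle tumours, with a log2 change of 0.72 (95% interval 0.36 to 1.08, edgeR adjusted p = 0.505). Itgax, which encodes CD11c of dendritic cells and some macrophages, had 96.8, 94, 84.5 and 118 CPM in trastuzumab tumours, against 70.0, 35.6, 65.5 and 51.2 CPM in vehicle tumours, a log2 change of 0.83. Both were apart between the groups. As lists, the markers of these cells gave smaller values: 9 of 11 monocyte markers were positive with a median of 0.32, 9 of 16 dendritic cell markers with a median of 0.12, and 12 of 21 macrophage markers with a median of 0.04. Among the monocyte markers 1 was higher and 1 lower in every trastuzumab library, against 1.35% and 0.961% of all genes. The lower one was F13a1 (log2 change -0.66). Without vehicle mouse 6 the monocyte median was 0.17. Without trastuzumab mouse 12 the dendritic cell median was 0.03 and the macrophage median -0.12. Emr1, which encodes the macrophage marker F4/80, had 274 ± 47.6 CPM in trastuzumab tumours and 255 ± 27.8 CPM in vehicle tumours (SD, n = 4 each), a log2 change of 0.11 (95% interval -0.15 to 0.37). Emr4, a relative expressed on myeloid cells, had 6.32, 6.33, 2.71 and 5.58 CPM in trastuzumab tumours, against 2.82, 1.77, 2.09 and 1.54 CPM in vehicle tumours, where 1 pair of libraries overlapped. Arg1, the arginase gene of alternatively activated macrophages, had 10.6, 16.3, 19.4 and 17.2 CPM in trastuzumab tumours, against 7.04, 7.88, 9.39 and 6.63 CPM in vehicle tumours, groups that did not overlap (log2 change 1.03, edgeR adjusted p = 1.00).

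The 3 tested Bcl2a1 genes, related genes that encode A1 proteins protecting leukocytes from apoptosis, were all apart between the groups. Bcl2a1d had 41.5, 31.5, 36.3 and 38.2 CPM in trastuzumab tumours, against 23.3, 21.6, 17.9 and 20.3 CPM in vehicle tumours, and Bcl2a1b had 35.3, 31.8, 36.9 and 34.1 CPM in trastuzumab tumours, against 24.1, 19.6, 17.7 and 18.9 CPM in vehicle tumours. Their log2 changes were 0.83 and 0.78, and Bcl2a1a, chosen after its values were seen, gave 1.23. As with the SIRP beta genes, how shared reads were handled is not known and their extent was not measured. Bcl2a1b also shares exon bases with Gm29094 on its own strand. The Bcl2a1 genes were the 3 of 17 tested p53 and apoptosis genes whose groups were apart, all higher, against 1.35% of all genes. Since their shared reads were not measured, they may not be 3 separate measurements. That list had a median of 0.11, or 0.03 without trastuzumab mouse 12. Other leukocyte surface genes were chosen after their values were seen: Cd52, at 123 ± 16 CPM in trastuzumab tumours and 79.9 ± 8.58 CPM in vehicle tumours, Cd72 at 81.2 ± 13.1 CPM in trastuzumab tumours and 51.8 ± 10.3 CPM in vehicle tumours, and Slamf8 at 15.9 ± 3.44 CPM in trastuzumab tumours and 8.76 ± 1.30 CPM in vehicle tumours (SD, n = 4 each). In each of the 3 the groups did not overlap.

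MHC class II genes were mostly higher in trastuzumab tumours. Of 11 tested genes, 10 had a positive log2 change, against 50.5% of all genes, and 4 were higher in every trastuzumab library, against 1.35% of all genes. The list was chosen with earlier results of these data known, so these counts describe it and are not independent support. The median was 0.42. H2-Ab1, a class II beta chain gene on chromosome 17 (34257689 to 34269419, plus strand, GRCm38), had 1020.0, 857, 748 and 988 CPM in trastuzumab tumours, against 602, 622, 637 and 662 CPM in vehicle tumours, a fold of 1.43 (log2 change 0.52, SE 0.11, edgeR adjusted p = 0.442). H2-Eb1 had 1103, 772, 758 and 942 CPM in trastuzumab tumours, against 575, 581, 609.8 and 694 CPM in vehicle tumours, and H2-Aa, chosen after its values were seen, had 1340.0, 1305, 905 and 1540.0 CPM in trastuzumab tumours, against 836, 728, 968 and 789 CPM in vehicle tumours. The beta chain genes were apart between the groups, while trastuzumab mouse 20 was within the vehicle range for H2-Aa. H2-DMb1, also chosen afterwards, gave 0.46. Ciita had 54.8, 32.9, 28.4 and 40.6 CPM in trastuzumab tumours, against 30.6, 25.1, 28.3 and 33.4 CPM in vehicle tumours. Its log2 change of 0.42 became 0.21 without trastuzumab mouse 12, the library highest in lymph node genes. Leaving that mouse out brought the list's median to 0.34. The summed class II level was 7416, 6379, 5366 and 7432 CPM in trastuzumab tumours, against 4738, 4452, 4968 and 4874 CPM in vehicle tumours. By this sum the other 3 trastuzumab tumours were also above every vehicle tumour. The sum weighs abundant genes most. By the mean log2 CPM of the 11 genes, trastuzumab mouse 20 (6.937) was just below vehicle mouse 29 (6.940). The H2 haplotype of the SCID hosts is not given, and reads of another haplotype may align less well to the reference.

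Class I presentation genes gave smaller values. Of 18 tested, 15 had a positive change, the median was 0.08 and 0 had groups apart. Without trastuzumab mouse 12 that median was -0.09. Nlrc5, the class I transactivator gene, had 36.4, 28.2, 18.4 and 27.2 CPM in trastuzumab tumours and 19.7, 28.8, 17.4 and 20.3 CPM in vehicle tumours, which overlap widely (log2 change 0.36, 95% interval -0.17 to 0.89), and the change was 0.18 without that mouse.

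Among the genes for Fc gamma receptors, Fcgr4 was the only one whose groups did not overlap. It encodes an activating receptor of mouse monocytes and macrophages and had 88.8, 83.1, 68.9 and 93.6 CPM in trastuzumab tumours, against 61.8, 67.4, 67.1 and 48.5 CPM in vehicle tumours, a log2 change of 0.45 (SE 0.21, edgeR adjusted p = 1.00). The lowest trastuzumab library was just above the highest vehicle library. Fcgr1, the gene of the high-affinity receptor, had 137, 126, 103 and 121 CPM in trastuzumab tumours, against 98.2, 106, 98 and 90.1 CPM in vehicle tumours, with 1 overlap and a log2 change of 0.31. Fcgr3, which encodes the low-affinity activating receptor also found on NK cells, gave 0.04 (95% interval -0.28 to 0.35), and Fcgr2b, the gene of the inhibitory receptor, gave -0.17 (95% interval -0.56 to 0.22). Fcer1g, the shared signalling chain, had 214, 206, 174 and 226 CPM in trastuzumab tumours and 181, 222, 190.4 and 185 CPM in vehicle tumours, a log2 change of 0.08 (95% interval -0.27 to 0.42). The intervals of Fcgr3 and Fcer1g cover 0 and also the value of Fcgr1. Of 14 tested genes of Fc receptors and their signalling, 11 were positive, 3 were higher in every trastuzumab library, against 1.35% of all genes, and the median was 0.07. That median ranged from 0.04 without trastuzumab mouse 24 to 0.14 without trastuzumab mouse 20.

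Cybb, the gene of the catalytic subunit of the phagocyte NADPH oxidase, had 318, 312, 226 and 310.5 CPM in trastuzumab tumours, against 255, 194, 211 and 219 CPM in vehicle tumours. Mouse 20 lay among the vehicle values and the others lay above them (log2 change 0.41, SE 0.13). Lyz1, a lysozyme gene, had 99.3, 87.8, 92.7 and 90.4 CPM in trastuzumab tumours, against 73.8, 81.4, 64 and 79.3 CPM in vehicle tumours, without overlap. Of the 10 oxidase and lysosomal killing genes, 9 were positive with a median of 0.19.

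NK cell genes were higher on average but rested largely on 1 tumour. The log2 change was above 0 for all 16 tested NK markers, and its median was 0.92. The groups were apart in 0 of them. Their summed level was 211, 91.6, 49 and 74.1 CPM in trastuzumab tumours, against 59.3, 54.1, 41.5 and 78.3 CPM in vehicle tumours. Mouse 12 carried the highest sum, and mice 20 and 24 lay within the vehicle range. Without mouse 12 the median was 0.37. Ncr1, the gene of the NK receptor NKp46, had 15.8, 8.71, 2.92 and 4.53 CPM in trastuzumab tumours, against 4.83, 4.34, 3.48 and 5.86 CPM in vehicle tumours, and its log2 change of 0.82 became 0.24 without mouse 12. Gzmb and Prf1, which encode the cytotoxic granule proteins granzyme B and perforin, gave 1.49 (95% interval -0.02 to 3.0) and 1.02 (95% interval -0.31 to 2.34), at 0.209 to 5.08 CPM over the 8 libraries. Klrc1, which encodes the receptor NKG2A, gave 1.39 and Xcl1, a chemokine gene of NK cells, gave 1.04, both with edgeR adjusted p = 1.00. Without mouse 12 Prf1 was at 0.39 and Klrc1 at 0.90. Ccl5 was at 59.5, 17.1, 12.7 and 13.8 CPM in trastuzumab tumours and 13.3, 15.1, 10.4 and 21.1 CPM in vehicle tumours, and its log2 change of 0.80 turned to -0.05 without mouse 12. The lymph node genes were highest in the same tumour, and their part in the NK values was not tested.

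Interferon-induced genes showed small positive changes with overlapping groups. Of 28 tested type I interferon response genes 26 were positive, with a median of 0.22 and 0 apart, and the median was 0.09 without trastuzumab mouse 12. Of 21 tested interferon gamma response genes 19 were positive, with a median of 0.20, which became 0.02 without that mouse. Rsad2, which encodes the antiviral protein viperin, had 26.9, 26.1, 30.1 and 18.1 CPM in trastuzumab tumours and 16.3, 18, 12.7 and 24 CPM in vehicle tumours. The chemokine genes Cxcl9, Cxcl10 and Cxcl11, whose products attract cells that carry CXCR3, gave 0.51 (SE 0.47), 0.72 (SE 0.45) and 0.94 (SE 0.61). Cxcl11 was the 1 member with groups apart, at 6.18, 6.33, 4.17 and 5.23 CPM in trastuzumab tumours, against 3.82, 2.41, 1.74 and 3.54 CPM in vehicle tumours. Cd274, which encodes the checkpoint ligand PD-L1, gave 0.25 (95% interval -0.49 to 1.0). Without trastuzumab mouse 12, Cxcl9 was at 0.16 and Cd274 at 0.01.

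Over all 24 tested chemokine genes 16 were positive with a median of 0.19, and the median was -0.03 without trastuzumab mouse 12. Cxcl16, whose product is a membrane chemokine of macrophages and dendritic cells, had 233, 210.5, 184 and 248 CPM in trastuzumab tumours, against 174, 169, 159.6 and 176 CPM in vehicle tumours, groups that did not overlap (log2 change 0.37, edgeR adjusted p = 0.836). Ccl24, which encodes an eotaxin, had 13.7, 6.49, 22.1 and 10.3 CPM in trastuzumab tumours and 2.82, 8.21, 5.39 and 9.55 CPM in vehicle tumours, and its log2 change of 0.98 became 0.64 without trastuzumab mouse 20.

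**Figure D4:**
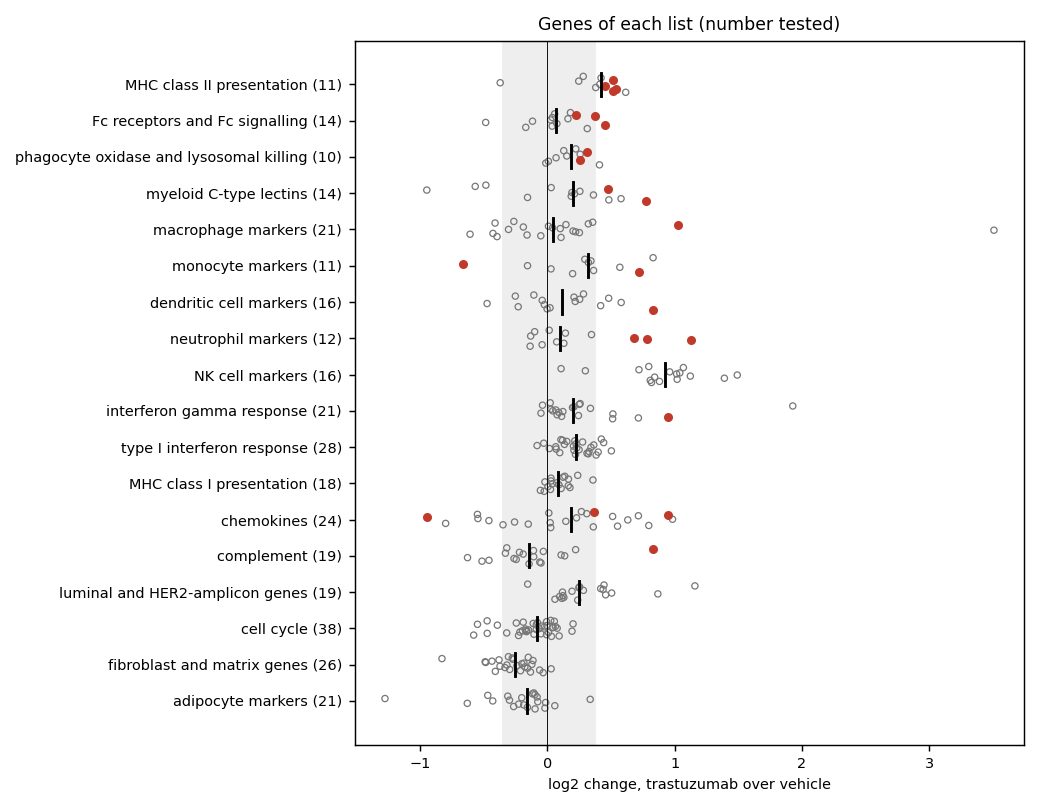
Log2 change, trastuzumab over vehicle (horizontal axis), of every tested gene of 18 lists (rows, number tested in brackets); filled red points are genes whose groups of 4 did not overlap, open points those that did, black ticks the list medians, and the grey band the 5th to 95th percentile of all genes. NK and class II genes lie mostly to the right, fibroblast and matrix genes mostly to the left of 0.

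The lower genes included several that are typical of tissue-resident macrophages. Fcna, which encodes ficolin A, a lectin of the complement system made by macrophages, had 62.2, 79, 52.4 and 43.7 CPM in trastuzumab tumours, against 99.4, 246, 106 and 106 CPM in vehicle tumours. Vehicle mouse 6 was far above all others, and the log2 change of -1.23 (SE 0.36, edgeR adjusted p = 0.818) became -0.80 without it. Hmox1, the haem oxygenase 1 gene, had 107, 90.2, 105 and 93.9 CPM in trastuzumab tumours, against 124, 225, 125 and 161 CPM in vehicle tumours, a log2 change of -0.68. Ednrb, an endothelin receptor gene, had 131, 134, 132 and 123 CPM in trastuzumab tumours, against 164, 374, 233 and 185 CPM in vehicle tumours, a log2 change of -0.88 that became -0.58 without vehicle mouse 6. In these 3 genes the groups did not overlap, and the trastuzumab libraries of Hmox1 and Ednrb were closer to each other than the vehicle libraries were.

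Npl, which encodes the lyase that splits sialic acid, had 43.5, 39.9, 67.2 and 53 CPM in trastuzumab tumours, against 69.6, 92.3, 76.1 and 72.1 CPM in vehicle tumours. F13a1, the coagulation factor XIII A gene of macrophages, had 318, 271, 321 and 291 CPM in trastuzumab tumours, against 338, 692, 379 and 488 CPM in vehicle tumours, and Stab1, a scavenger receptor gene, had 235, 255, 228 and 251 CPM in trastuzumab tumours, against 303, 451, 363 and 274 CPM in vehicle tumours. Their log2 changes were -0.61, -0.66 and -0.52, each with groups apart. F13a1, also a member of the monocyte list above, was at -0.42 without vehicle mouse 6. Mrc1, which encodes the mannose receptor CD206, overlapped between the groups, with 334, 399.6, 294 and 387 CPM in trastuzumab tumours and 444, 771, 558 and 381 CPM in vehicle tumours, a log2 change of -0.61 that became -0.38 without vehicle mouse 6. In a list of 18 resident-type macrophage genes drawn up after these values were seen, 16 had a negative change. In 6 of them every trastuzumab library was lower than every vehicle library, against 0.961% of all genes. These counts describe the choice and are not support for it. By summed level the groups overlapped, with trastuzumab mouse 12 (2610 CPM) above vehicle mouse 3 (2504 CPM). The list's median of -0.54 became -0.33 without vehicle mouse 6, which was also among the highest in adipocyte markers.

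The remaining genes of the first 10 decreases were of mixed function. Fbp1, the gluconeogenic enzyme gene, had 4.39, 3.96, 3.34 and 1.74 CPM in trastuzumab tumours, against 5.83, 7.24, 6.61 and 6.01 CPM in vehicle tumours, and Loxl4, which encodes a collagen cross-linking oxidase, had 5.49, 5.70, 4.59 and 3.31 CPM in trastuzumab tumours, against 8.25, 13, 7.13 and 8.47 CPM in vehicle tumours. Slc16a13, a monocarboxylate transporter gene, gave -0.64. Pqlc2, a lysosomal amino acid transporter gene, Arsg, a lysosomal sulfatase gene, and Nxpe5 gave -0.51, -0.73 and -0.76. In Pqlc2, Arsg and Nxpe5 vehicle mouse 6 was the highest library, and without it the changes were -0.40, -0.44 and -0.48. Krt10, a keratin gene of the upper epidermis, had the lowest log2 change of the named genes, -3.73, but 3.43, 3.96, 3.13 and 2.61 CPM in trastuzumab tumours stood against 2.21, 4.18, 166 and 4.47 CPM in vehicle tumours. Only vehicle mouse 21 was high, and without it the change was -0.15.

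Fibroblast and matrix genes leaned lower as a list. Of 26 tested genes 25 had a negative change, 0 had groups apart, and the median was -0.25. Mmp3, the stromelysin gene, had 106, 255, 116 and 127 CPM in trastuzumab tumours and 231, 403, 288 and 151 CPM in vehicle tumours, and Thy1, a fibroblast surface marker gene, gave -0.48 (95% interval -0.86 to -0.11). Adipocyte markers had 19 of 21 negative with a median of -0.16, which ranged from -0.97 to 0.12 when single libraries were left out, and Adipoq, the adiponectin gene, gave -0.10 (95% interval -1.09 to 0.90). Complement genes had 15 of 19 negative and a median of -0.14, with C1qa at -0.14 and C1ra at -0.51, or -0.01 and -0.28 without vehicle mouse 6. Cell cycle genes had 27 of 38 negative and a median of -0.08. The complement median was -0.0074 without vehicle mouse 6, and the cell cycle median 0.0032 without trastuzumab mouse 12. The fibroblast median was -0.13 without trastuzumab mouse 12, the value nearest 0 with 1 library left out.

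Neutrophil markers had 8 of 12 positive and a median of 0.10, which was 0.03 to 0.16 with 1 library left out. Fpr1, the formyl peptide receptor gene, had 3.43, 4.75, 3.97 and 4.18 CPM in trastuzumab tumours, against 2.62, 1.61, 3.13 and 2.16 CPM in vehicle tumours, without overlap. Erythroid genes had 4 of 5 negative, and the haemoglobin gene Hbb-b1 had 298, 162, 219 and 91.5 CPM in trastuzumab tumours and 128, 185, 126 and 421 CPM in vehicle tumours, with the highest library in the vehicle group and the lowest in the trastuzumab group.

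Luminal genes and those of the HER2 amplicon had 18 of 19 positive changes with a median of 0.25 and 0 apart, and without vehicle mouse 6 the median was 0.08. Mouse Erbb2, the orthologue of the antibody's human target, had 153, 172, 198 and 190.1 CPM in trastuzumab tumours and 195, 87, 158 and 164 CPM in vehicle tumours, a log2 change of 0.24 (95% interval -0.29 to 0.77) that became 0.05 without vehicle mouse 6. Krt8, a luminal keratin gene, gave 0.12 (95% interval -0.20 to 0.45), and Krt19 gave 0.87. Human tumour reads can align to these conserved genes, and their part in the counts was not measured. Egfr gave -0.42, with 40.5, 51.3, 42.6 and 55.1 CPM in trastuzumab tumours and 55.5, 84.8, 65.9 and 47.5 CPM in vehicle tumours, and -0.25 without vehicle mouse 6.

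Most of the higher genes of smallest p were also higher when trastuzumab was added to panobinostat, in 8 libraries that share no mouse with the comparison above. In that pair 0 of 15610 genes (0%) were called by edgeR and 14 by DESeq2. Of the 50 increases with the smallest unadjusted p in trastuzumab against vehicle, 48 (96%) had a positive log2 change in combination over panobinostat, against 47.9% of all genes. In 25 (50%) every combination library was above every panobinostat library, against 1.61% of all genes. Of the 50 decreases of smallest p, 15 (30%) had a positive change in the other pair, 0 were higher and 3 (6%) were lower in every combination library, against 1.17% of all genes, with a median of -0.08 compared with -0.81 in trastuzumab against vehicle. The 2 pairs were fitted together and share 1 estimate of the spread per gene.

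**Figure D5:**
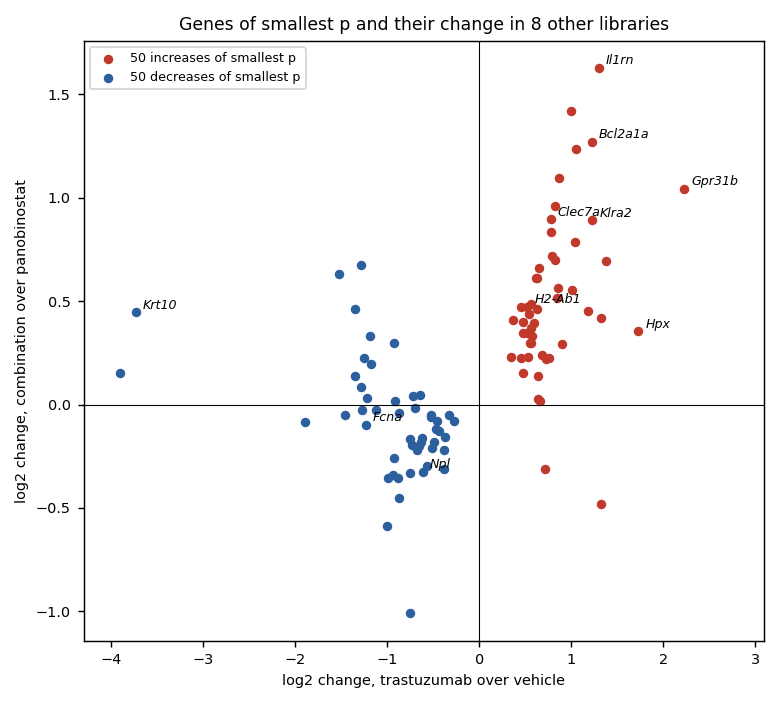
Log2 change of the 50 increases (red) and 50 decreases (blue) of smallest p in trastuzumab against vehicle (horizontal axis) and of the same genes in combination over panobinostat (vertical axis), which uses 8 other libraries. Of the 50 red points 48 lie above 0 on the vertical axis, while the blue points have a median of -0.08 on that axis.

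Il1rn had 70.4, 90.9, 70.5 and 176 CPM in combination mice 2, 11, 16 and 22, against 44.4, 20.6, 33.5 and 34 CPM in panobinostat mice 4, 7, 8 and 13 (log2 change 1.63, edgeR adjusted p = 0.182). Clec7a had 262, 199, 238 and 284 CPM in combination tumours, against 170.3, 97, 139 and 122 CPM in panobinostat tumours. H2-Ab1 had 957, 979, 820.1 and 991 CPM in combination tumours, against 747, 669, 681 and 603 CPM in panobinostat tumours. In all 3 genes the groups did not overlap. Klra2, Stap1, Itgax, Sirpb1a, Bcl2a1d and H2-Eb1 were apart as well, with log2 changes of 0.89, 0.79, 0.70, 0.51, 0.96 and 0.44. Gpr31b, Gm5150, Hpx, Tmem51 and Ccr2 were not apart there. Ccr2 had 613, 395, 518 and 492 CPM in combination tumours and 459.7, 399.9, 572 and 299 CPM in panobinostat tumours, a log2 change of 0.22, and Hpx gave 0.35. Of the lower genes, Fcna gave -0.10, Hmox1 -0.22, Ednrb -0.36, Npl -0.32 and Fbp1 0.02, all with overlapping groups. By list, the median in the combination pair was 0.36 for class II genes, of which 7 were higher in every combination library (against 1.61% of all genes), 0.67 for NK markers, 0.50 for the interferon gamma response, 0.35 for the type I interferon response and -0.28 for resident-type macrophage genes. The difference between the 2 trastuzumab contrasts was itself tested as an interaction, with 0 genes called by edgeR (279 at an unadjusted p under 0.05) and 0 by DESeq2. A missed threshold does not show that the contrasts were alike.

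Averaged over tumours without and with panobinostat, a contrast added after the data were seen, trastuzumab had 23 called genes of 15610 (0.147%), all of them higher. Il1rn rose by 1.46 on the log2 scale (SE 0.19, edgeR adjusted p = 0.00718) and Clec7a by 0.84 (SE 0.11, edgeR adjusted p = 0.00718). The called genes included the class II genes H2-Ab1 (0.50), H2-Eb1 (0.49) and H2-DMb1 (0.46), the SIRP beta genes Sirpb1a (0.68), Gm5150 (0.78), the Bcl2a1 genes Bcl2a1a (1.25), Bcl2a1b (0.81) and Bcl2a1d (0.89), and Stap1 (0.92), Slamf8 (0.98), Cd52 (0.62), Cd72 (0.66), Itgax (0.76), Klra2 (1.06), Gpr31b (1.64), Emr4 (1.04), Clec12a (0.59) and Nfkbiz (0.54). Of the 23, 20 also had trastuzumab and vehicle groups that did not overlap. Since this contrast contains the same trastuzumab and vehicle libraries, it is not independent of the values above. Only Il1rn and Clec7a kept their call in all 16 fits that left out 1 library each, and the number of calls in those fits was 2 to 33, with 2 without trastuzumab mouse 24, vehicle mouse 6 or panobinostat mouse 7 or 13, 8 to 12 without trastuzumab mouse 12, vehicle mouse 21 or 29 or combination mouse 2 or 22, and 33 without trastuzumab mouse 20.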

How the data were processed

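Per the labels' protocols, total RNA of whole tumours was made into libraries with an Illumina TruSeq kit that does not mark strand. The authors deposited 1 table of raw counts, by mouse gene symbol. CASAVA 1.8.2, TopHat2, HTSeq and the build mm10 are named in the submitters' processing notes. Their settings and any removal of human reads were not given in the sources used here.

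Of 24681 symbols, 23354 had values in all 16 libraries; 1327 held a dot in every panobinostat-treated library, and none of these passed the filter in the 8 libraries studied. Total counts were 4848244 to 8140782. Replicates differed beyond sampling noise (chi-square per degree of freedom at least 4.32). The labels do not say whether mice share a cage or day.

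The main test was edgeR 4.0.16's quasi-likelihood F test (R 4.3.3) on all 16 libraries with TMM scaling, filterByExpr and Benjamini-Hochberg adjustment over 15610 genes; the common biological coefficient of variation was 0.183. The SE is the absolute log2 change over the square root of F, and the 95% interval follows from it. DESeq2 1.42.0, limma 3.58.1 (voom), other scalings, no filter, the 8 libraries alone and leaving out each library were alternatives. The fit was also run on simulated counts that had the same spread for every gene. That run does not show how the fit handles outlying libraries. Promoter windows were aligned with biopython 1.88.

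The genes and 35 lists were chosen with earlier results of these data known, and 4 lists were added after values were seen. Named genes are the 10 increases and 10 decreases of smallest unadjusted p with groups apart, at least 1 CPM and an assigned symbol, the 2 members of smallest p in a list, a fixed set of always-named genes and those DESeq2 called; some of these are left out, and others are marked as chosen afterwards. Of list members, 10 were matched by an older symbol. In the GENCODE annotation of GRCm38, 19 named genes share exon bases with a gene on the other strand: Tmem51, Sirpb1b, Arsg, Fcna, Xcl1, Nlrc5, Ciita, Cxcl10, Cxcl11, Cxcl16, F13a1, Stab1, Krt10, Krt8, Erbb2, Fcgr2b, Cd274, Cd72 and Cd52. Reads from the shared bases of each such pair cannot be told apart by strand, and their share of the counts was not measured. Bcl2a1b shares exon bases with Gm29094 on the same strand. CPM of different genes are not corrected for length.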

Additional observations from a re-analysis of the deposited data

Results flagged for a closer look

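Among 160 groups of 4 libraries examined, which were the 79 named genes and the total count in each of the 2 groups, 10 had a highest or lowest library whose gap to its neighbour, as a share of the group's range, was past Dixon's 95% critical value, and chance alone flags about 1 in 20 such groups. Trastuzumab mouse 12 was the high library for Ccl5 (59.5 CPM) and Xcl1 (8.38 CPM), and the low one for Slc16a13 (2.88 CPM). In trastuzumab mouse 20 Cybb was low at 226 CPM, and in trastuzumab mouse 15 Mmp3 was high at 255 CPM. Vehicle mouse 6 was the high library for Fcna (246 CPM), Pqlc2 (25.6 CPM) and Arsg (22.2 CPM). Vehicle mouse 21 was high for Krt10 at 166 CPM, and vehicle mouse 29 was low for Emr1 at 213 CPM.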

How the results depend on the processing

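The count of 0 genes for trastuzumab against vehicle held in 13 of 15 alternatives; DESeq2 called 12 and the fit of the 8 libraries alone 1. DESeq2 called 14 genes for combination over panobinostat and 64 for the averaged contrast, against 0 and 23 by edgeR, and the averaged contrast had 2 to 33 calls when 1 library was left out. The interaction stayed at 0 in all 21 alternatives run. Over 1184 values of the 79 named genes under alternatives, 13 changed sign, in 8 genes with log2 changes that were small or rested on 1 library, and 13 became past the threshold, 12 by DESeq2 and 1 in the fit of the 8 libraries. The leave-one-out values were -0.46 to 0.40 for Hbb-b1, -0.28 to 0.016 for Fcgr2b, -0.0043 to 0.12 for Fcgr3, -0.052 to 1.02 for Ccl5, -0.12 to 0.0058 for Sirpa and -0.63 to 0.15 for Adipoq. Leaving out trastuzumab mouse 12 and vehicle mouse 21 together, an alternative added after seeing the data, gave -0.083 for Cxcl9, -0.19 for Ccl5 and -0.011 for Cd274, and 0 calls. Among single libraries left out, vehicle mouse 6 brought Fcna, Hmox1, Ednrb, Npl, F13a1, Loxl4, Pqlc2, Arsg and Nxpe5 closest to 0. That did not hold for every decrease. Fbp1, Slc16a13 and Krt10 came closest without trastuzumab mouse 24, vehicle mouse 3 and vehicle mouse 21. No paired analysis was possible because the groups share no mouse number and the labels name no batch. Depth limits the low genes most: Gzmb had 1 to 27 counts per library.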

Other observations

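Several further lists had small medians between trastuzumab and vehicle tumours. Endothelial and pericyte markers had 14 of 22 genes positive (median log2 change 0.07), and immediate early genes, which respond within minutes to growth signals, had 8 of 17 positive (median -0.03). Genes of phagocytosis and of eat-me or do-not-eat-me signals had 11 of 23 positive (median -0.03), and checkpoint ligands and costimulators 9 of 12 (median 0.10), with Cd83, a maturation marker of dendritic cells, at 97.1 ± 6.43 CPM in trastuzumab tumours and 79.8 ± 14.2 CPM in vehicle tumours (SD, n = 4 each). Hypoxia and glycolysis genes had 4 of 14 positive (median -0.04), and heat shock and unfolded protein response genes 9 of 15 (median 0.04). EGF receptor family genes and ligands had 8 of 13 positive (median 0.12). With 1 library left out, these 7 medians lay between -0.11 (phagocytosis) and 0.20 (EGF receptor family).

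Markers of other tissues had few tested genes. Nerve and Schwann cell genes had 6 of 12 positive (median 0.08), with Pmp22, a myelin protein gene that fibroblasts also express, at 96.8, 130.1, 83.1 and 95.3 CPM in trastuzumab tumours and 159, 261, 193 and 128 CPM in vehicle tumours. Mast cell and eosinophil markers had 2 of 6 positive (median -0.36), skeletal muscle genes 3 of 6 (median 0.03), platelet genes 2 of 3 (median 0.20), and mammary epithelial and keratinocyte markers 2 of 8 (median -0.31, which became 0.19 without vehicle mouse 21). T cell markers had 3 of 6 positive (median -0.05) and B cell and plasma cell markers 2 of 4 (median -0.02). The mast cell and eosinophil median was -0.54 to -0.10 with 1 library left out.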
